A study of Rattus norvegicus with 9 samples.

Results

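The tumour necrosis factor (TNF) family genes of rat striatum were followed across 9 RNA sequencing libraries. The members were every gene of the count files named Tnf, or whose name begins with Tnfrsf (receptors), Tnfsf (ligands), Tnfaip (genes first found as induced by TNF) or Traf (adaptors) followed by a digit. That gave 49 of 22890 genes. The name rule also takes in Traf3ip1, Traf3ip2 and Traf3ip3, which are named for binding Traf3, and leaves out relatives with other names such as Fas and Cd40. The libraries were 3 of Sham, the control group, 3 of ICH, rats with intracerebral hemorrhage, and 3 of EDB, the group named for edaravone dexborneol, a combination of a free radical scavenger with dexborneol. The labels give striatal tissue for every library and give no strain, sex, age, dose or time. Whether hemorrhage was induced in EDB rats is not stated, and neither is whether each library is 1 animal; p-values here measure only the spread between these libraries.

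Ligands of this family are mostly membrane proteins that can be cut free, and they act as trimers. Receptors with a death domain, such as that of Tnfrsf1a, can recruit caspase 8 or the kinase Ripk1, whereas most other members bind Traf adaptors directly and activate NF-kB and stress kinases. In the brain, microglia are a source of TNF, astrocytes and neurons carry Tnfrsf1a, and microglia carry Tnfrsf1b.

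Total counts ran from 14658110 to 17659936 per library, so that 1 library's floor of 3 counts stood at 0.162 to 0.212 CPM (counts scaled to a common library size, corrected for library composition by TMM). Striatal neuron markers such as Drd1 and Penk were present in every group, with a summed level of 5118 to 11031 CPM per library over 9 genes. Of the libraries, 3 stood apart from their groups: Sham 2 on the second principal component (-36.3 against 31.7 and 35.1), EDB 3 with 6684 CPM of the choroid plexus gene Ttr against 17.0 to 52.5 CPM in the other 8, and ICH 1 with no counts of the Y-linked Kdm5d. A gene was called, and is said to have risen or fallen, at an adjusted p under 0.05 in edgeR's quasi-likelihood test with Benjamini-Hochberg adjustment over all 14274 genes tested. Of the 49 members, 37 had enough counts to be tested and 12 did not. Of those 37, 32 reached the count cutoff in all 3 Sham libraries. The other 5, Tnf, Tnfrsf13b, Tnfrsf26, Tnfsf13b and Tnfsf4, passed through libraries of the other groups. Tnfrsf4, among the 32, passed through the Sham libraries only.

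The comparison of ICH with Sham asks what the hemorrhage changed. The receptors for TNF, the B cell ligands Tnfsf13 and Tnfsf13b, the T cell ligand Tnfsf4 and 2 genes of the Tnfaip set rose, while Traf3 and Tnfrsf4 fell. In all, 10 members rose and 2 fell, and 25 of the 37 tested were not called. Over all genes tested, 11.4% rose and 7.3% fell. The number of risen members was 11 without Sham 2, 8 without ICH 1 and 9 without EDB 3. The median log2 fold change was 0.49 over the 37 tested members and 0.01 over all genes tested, and 21 members had no overlap between the groups' libraries, as did 35.6% of all genes. Tnf itself was not called.

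**Figure D1:**
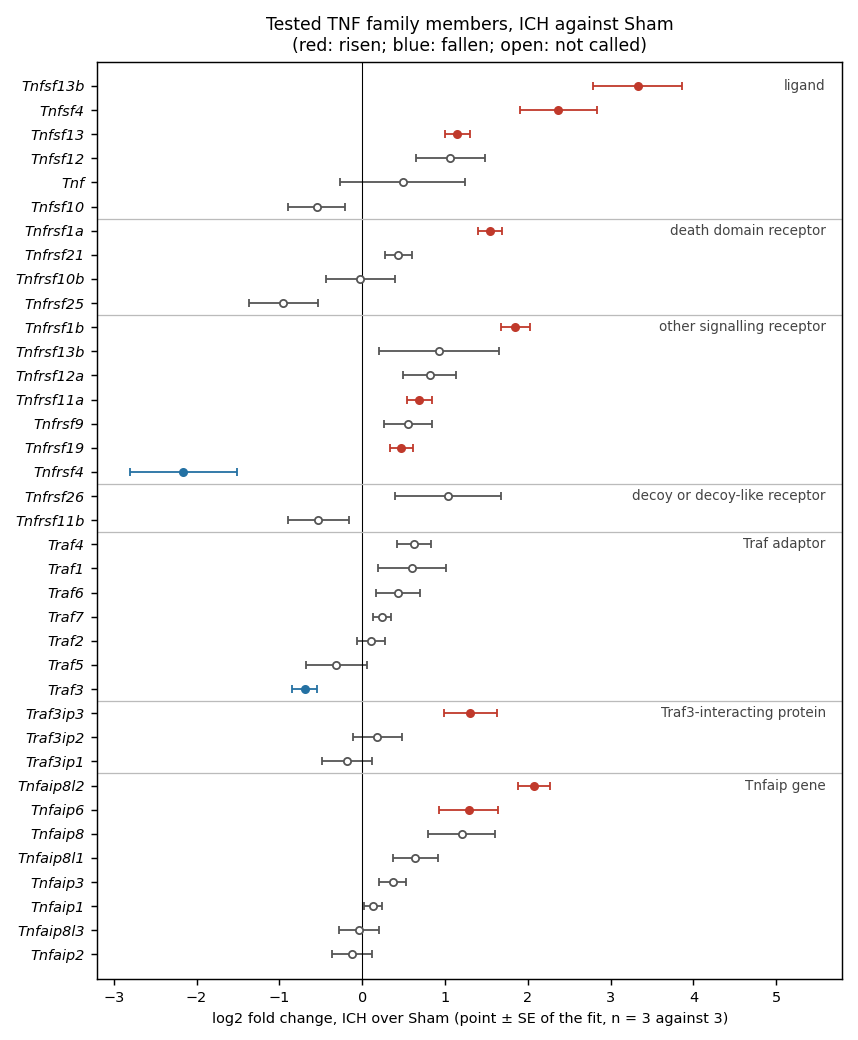
Log2 fold change of ICH over Sham (horizontal axis) for the 37 tested members, grouped by role, with points ± SE of the fit and n = 3 against 3. Filled red points rose, filled blue points fell and open points were not called; Tnfsf13b lies farthest right at 3.33 and Tnfrsf4 farthest left at -2.16.

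Tnfrsf1a encodes the receptor that binds TNF and carries a death domain. It stood at 17.7, 19.9 and 18.9 CPM in Sham 1, 2 and 3, at 54.2, 57.3 and 53.6 CPM in ICH 1, 2 and 3, and at 35.0, 25.6 and 33.3 CPM in EDB 1, 2 and 3. The 3 groups did not overlap, and EDB lay between Sham and ICH. The rise in ICH was a log2 fold change of 1.55 ± 0.14 (SE, n = 3 against 3, adjusted p = 5.86e-05). Tnfrsf1b encodes the other TNF receptor, which has no death domain and signals through Traf2. Its levels were 5.75, 7.73 and 7.22 CPM across Sham, 23.6, 25.04 and 26.0 CPM across ICH and 15.7, 14.1 and 12.3 CPM across EDB. Again no library of 1 group reached into another group. Tnfrsf1b rose in ICH by 1.85 ± 0.17 on the log2 scale (adjusted p = 6.36e-05).

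The ligand shared by both receptors did not show that pattern. Tnf had 7, 17 and 1 counts in Sham 1, 2 and 3, 20, 14 and 6 in ICH 1, 2 and 3, and 7, 11 and 11 in EDB 1, 2 and 3. The groups overlapped, with Sham 2 above 2 of the ICH libraries in CPM. The ratio of summed counts of ICH over Sham was 1.39 with an exact 95% counting interval of 0.822 to 2.39, and the fitted log2 fold change was 0.49 ± 0.76 (adjusted p = 0.725), or -0.0161 without Sham 3 and 1.57 without Sham 2. The counting interval leaves out the spread between libraries, which for Tnf was wide. In bulk tissue such as this, more cells of a type and more RNA per cell cannot be told apart.

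Of 12 ligands 6 were tested and 3 rose, where 11.4% of all genes rose. The 3 are known for acting on lymphocytes, and Tnfsf13b and Tnfsf4 were tested only because their counts in ICH and EDB passed the filter. Tnfsf13, also called APRIL, supports B cells and plasma cells. Its level was 13.4, 10.7 and 11.8 CPM in Sham 1, 2 and 3, 30.2, 24.7 and 24.5 CPM in ICH 1, 2 and 3, and 24.0, 25.1 and 22.9 CPM in EDB 1, 2 and 3. ICH and EDB both lay above every Sham library and overlapped each other. The log2 fold change was 1.15 ± 0.15 in ICH against Sham (adjusted p = 0.000415).

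Tnfsf13b, also called BAFF, is the main survival factor of B cells. Counts were 9, 1 and 4 across Sham, 61, 45 and 58 across ICH and 28, 35 and 23 across EDB, and no group reached into another. The fitted log2 fold change was 3.33 ± 0.54 (adjusted p = 0.00152), or 4.09 without Sham 1 and 2.87 without Sham 2. The gene passed the count filter only through ICH and EDB, where it was high, and Sham rests on 14 counts in all. The ratio of summed counts was 10.2, with a 95% interval of 5.89 to 19.0 that covers counting error only.

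Tnfsf4, the OX40 ligand, co-stimulates T cells. It had 6, 3 and 9 counts in Sham 1, 2 and 3, 32, 30 and 48 in ICH 1, 2 and 3, and 25, 32 and 23 in EDB 1, 2 and 3. All ICH and EDB libraries were above all Sham libraries, and ICH rose by 2.37 ± 0.46 (adjusted p = 0.00495). Its receptor Tnfrsf4, found mainly on activated T cells, went the opposite way, with 18, 14 and 9 counts in Sham, 3, 6 and 1 in ICH and 5, 7 and 4 in EDB. Sham lay above every other library, but the gene passed the count filter only through Sham, where it was high. The fall in ICH was -2.16 ± 0.65 (adjusted p = 0.0391), but the call was lost without any 1 library except ICH 2, whose removal gave -2.95 (adjusted p of the lost calls between 0.0560 and 0.133) and with no filter on low counts (adjusted p = 0.0671).

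Other ligands were not called. Tnfsf12, or TWEAK, a ligand tied to tissue remodelling, stood at 11.4, 5.47 and 5.17 CPM across Sham, 20.3, 6.23 and 19.7 CPM across ICH and 13.6, 12.8 and 13.9 CPM across EDB. ICH 2 sat inside the Sham range while ICH 1 and ICH 3 sat above it. The log2 fold change was 1.06 ± 0.42 (adjusted p = 0.107). It was called as a rise without Sham 1 (1.501, adjusted p = 0.0481) or without ICH 2 (1.41, adjusted p = 0.0157). Its receptor Tnfrsf12a, or Fn14, stood at 2.69, 2.39 and 1.49 CPM in Sham and 3.73, 3.96 and 3.89 CPM in ICH. Those groups did not overlap, yet the change of 0.81 ± 0.32 was not called (adjusted p = 0.104). Tnfsf10, the death ligand TRAIL, stood at 4.0, 3.69 and 8.64 CPM in Sham, 4.31, 3.15 and 3.67 CPM in ICH and 4.21, 5.70 and 5.06 CPM in EDB, and 1 library, Sham 3, was well above the rest (-0.55 ± 0.35, adjusted p = 0.317).

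The receptor Tnfrsf11a, or RANK, drives osteoclast formation and is also carried by macrophages and microglia. It stood at 25.7, 22.5 and 22.3 CPM in Sham 1, 2 and 3, 37.8, 45.2 and 30.8 CPM in ICH 1, 2 and 3, and 52.1, 46.2 and 52.4 CPM in EDB 1, 2 and 3. It was the called member whose EDB libraries all lay above both other groups. The rise in ICH was 0.69 ± 0.15 (adjusted p = 0.0101), and without ICH 2 it was no longer called (0.52, adjusted p = 0.0590). Its ligand Tnfsf11 had 1 count in the 9 libraries together. Tnfrsf11b, the secreted decoy osteoprotegerin that binds Tnfsf11, stood at 9.37, 9.23 and 24.4 CPM in Sham, 13.2, 9.38 and 7.24 CPM in ICH and 9.34, 7.25 and 7.44 CPM in EDB. Sham 3 was above all others, and the change in ICH was -0.53 ± 0.37 (adjusted p = 0.375), or 0.0931 without Sham 3.

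Tnfrsf19, or TROY, is a receptor of neural progenitors and astrocytes. It stood at 42.4, 32.6 and 36.2 CPM across Sham, 44.2, 55.2 and 55.2 CPM across ICH and 31.0, 34.5 and 32.1 CPM across EDB. ICH lay above both other groups, which overlapped. The rise in ICH was 0.47 ± 0.14 (adjusted p = 0.0393). That call was lost without Sham 2, Sham 3, ICH 2, ICH 3, EDB 1 or EDB 3 (adjusted p between 0.0542 and 0.147) and with only the 6 libraries compared (adjusted p = 0.0690). The death domain receptor Tnfrsf21 stood at 52.3, 74.1 and 65.8 CPM in Sham and 89.3, 80.4 and 90.6 CPM in ICH, without overlap, and was not called (0.44 ± 0.16, adjusted p = 0.0884), except without Sham 2 (0.56, adjusted p = 0.0474) or with scaling by library size only (0.54, adjusted p = 0.0310). Tnfrsf25, a death domain receptor of T cells, stood at 1.5, 1.16 and 1.91 CPM in Sham and 0.875, 0.944 and 0.540 CPM in ICH (-0.95 ± 0.41, adjusted p = 0.141). The remaining tested receptors, Tnfrsf9, Tnfrsf10b, Tnfrsf13b and Tnfrsf26, had log2 fold changes from -0.02 to 1.04 without a call, except that Tnfrsf13b, with 11 of its 14 Sham counts in Sham 2, was called as a rise without that library.

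**Figure D2:**
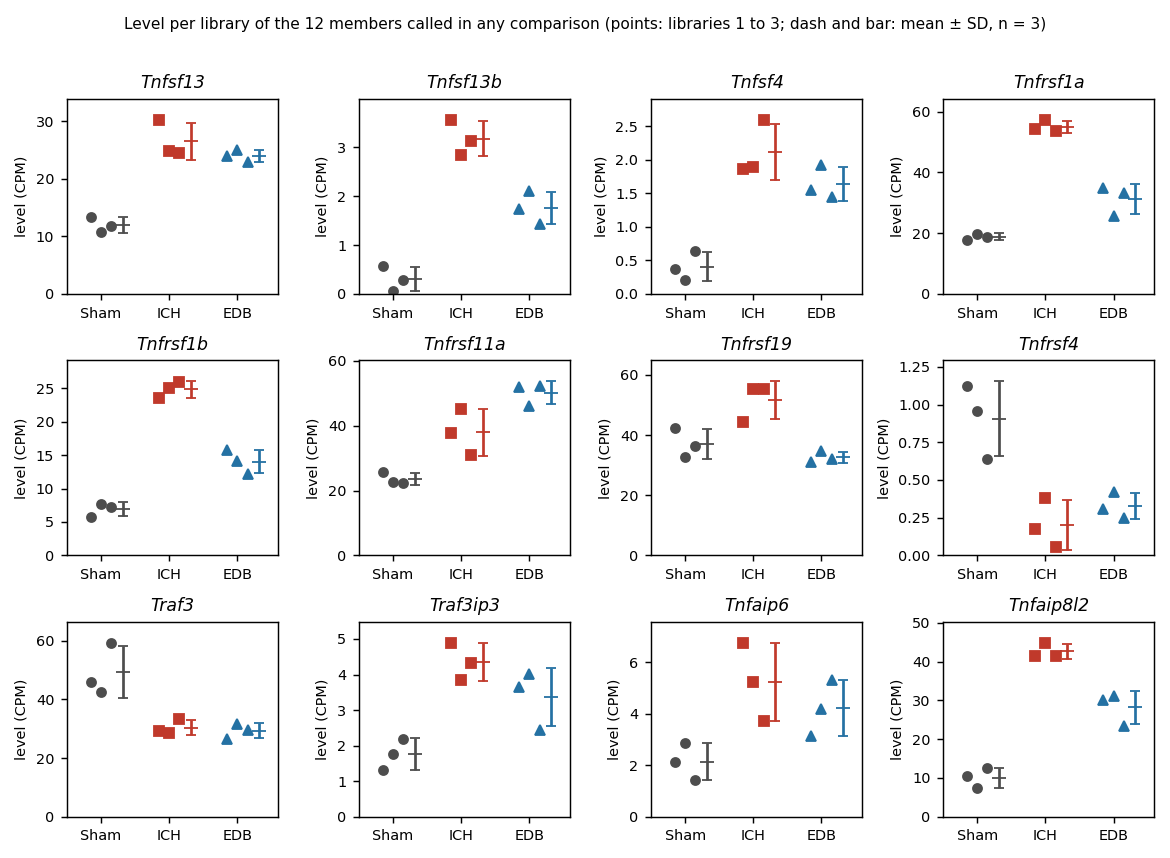
Level in CPM (vertical axis, from 0) in each Sham, ICH and EDB library for the 12 members called in at least 1 comparison; points are libraries 1 to 3, dashes with bars are mean ± SD with n = 3. Tnfrsf1a and Tnfrsf1b show 3 separate groups with EDB in the middle, Tnfrsf11a is highest in EDB, and Traf3 is highest in Sham.

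Of the 7 Traf adaptors, which link receptors to NF-kB and kinases, 1 fell and 6 were not called, where 7.3% of all genes fell. Traf3 restrains the non-canonical NF-kB route by leading to breakdown of the kinase Map3k14. It stood at 45.8, 42.6 and 59.4 CPM in Sham 1, 2 and 3, at 29.4, 28.6 and 33.3 CPM in ICH 1, 2 and 3, and at 26.5, 31.7 and 29.7 CPM in EDB 1, 2 and 3. Every Sham library was above every other library, and ICH and EDB overlapped. The fall in ICH was -0.70 ± 0.15 (adjusted p = 0.00892), and it was called without any 1 library, at log2 fold changes from -0.79 to -0.54. The 6 other adaptors had log2 fold changes of -0.31 ± 0.37 (Traf5), 0.10 ± 0.17 (Traf2), 0.24 ± 0.11 (Traf7), 0.43 ± 0.27 (Traf6), 0.60 ± 0.41 (Traf1) and 0.63 ± 0.21 (Traf4).

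Traf4 came nearest to a call among them. Its levels were 25.4, 19.4 and 15.4 CPM across Sham and 25.4, 37.2 and 30.3 CPM across ICH (adjusted p = 0.0587), and it was called without Sham 1 (0.79, adjusted p = 0.0339), with DESeq2 (adjusted p = 0.0401) and with scaling by library size only (adjusted p = 0.0476). Traf2, the adaptor of Tnfrsf1b, stood at 15.1, 19.4 and 13.7 CPM in Sham and 16.5, 18.8 and 16.4 CPM in ICH, with the ICH values inside the Sham range. Traf6, which serves toll-like and interleukin receptors, stood at 5.0, 3.69 and 5.95 CPM in Sham and 7.64, 5.85 and 6.21 CPM in ICH, and these groups overlapped. Traf1 had 2.87, 1.505 and 0.920 CPM in Sham and 2.80, 2.64 and 2.65 CPM in ICH. Traf5 stood at 2.12, 1.44 and 1.13 CPM in Sham, 1.11, 1.32 and 1.35 CPM in ICH and 2.23, 1.98 and 2.06 CPM in EDB. For Traf1 and Traf5, Sham 1 was the highest Sham library. Traf7 stood at 65.2, 69.8 and 61.1 CPM in Sham and 72.5, 79.3 and 79.9 CPM in ICH, without overlap (adjusted p = 0.154).

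Among the 3 genes named for binding Traf3, Traf3ip3, an adaptor of lymphocytes and other immune cells, rose. It stood at 1.31, 1.78 and 2.19 CPM across Sham, 4.90, 3.84 and 4.32 CPM across ICH and 3.65, 4.02 and 2.44 CPM across EDB, with Sham below all others (1.30 ± 0.32, adjusted p = 0.0165). Leaving out Sham 1 or ICH 1 ended that call (adjusted p of 0.0684 and 0.0579). Traf3ip2, which couples the interleukin 17 receptor, and Traf3ip1, a protein of cilia, had log2 fold changes of 0.18 ± 0.29 and -0.18 ± 0.31.

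The 8 Tnfaip genes share an origin in screens for TNF-induced or related sequences and differ in function, and 2 rose, where 11.4% of all genes did. Tnfaip8l2, or TIPE2, restrains toll-like and T cell receptor signalling and is made by myeloid and lymphoid cells. It stood at 10.4, 7.39 and 12.5 CPM in Sham 1, 2 and 3, 41.4, 44.9 and 41.5 CPM in ICH 1, 2 and 3, and 30.1, 31.1 and 23.4 CPM in EDB 1, 2 and 3. The 3 groups were separate, with EDB in the middle, and the rise in ICH was 2.08 ± 0.20 (adjusted p = 6.52e-05). Tnfaip6, which binds hyaluronan in inflamed matrix, stood at 2.12, 2.87 and 1.42 CPM in Sham, 6.76, 5.22 and 3.73 CPM in ICH and 3.16, 4.20 and 5.31 CPM in EDB. Sham lay below all other libraries. Its rise of 1.29 ± 0.36 (adjusted p = 0.0288) was no longer called when Sham 1, Sham 3, ICH 1 or ICH 2 was left out, at adjusted p between 0.0799 and 0.110.

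Tnfaip3, or A20, is an NF-kB target that switches the pathway off. It stood at 17.1, 14.4 and 13.5 CPM across Sham, 19.1, 17.6 and 21.3 CPM across ICH and 16.2, 19.1 and 14.6 CPM across EDB. Sham and ICH did not overlap, but the distance between the nearest libraries was small, and the change of 0.37 ± 0.17 was not called (adjusted p = 0.161). Tnfaip8, the founding relative of Tnfaip8l2, missed the threshold in ICH (1.20 ± 0.40, adjusted p = 0.0611) and was called by DESeq2, by limma-voom, with library size scaling and without Sham 3. The other 4, Tnfaip1, Tnfaip2, Tnfaip8l1 and Tnfaip8l3, had log2 fold changes from -0.13 to 0.64. Gene spans of 16 members overlap another gene in the GRCr8 annotation. The called members among them are Tnfaip8l2 (Lysmd1), Tnfsf13 (Eif4a1l), Tnfrsf1b (LOC103692519), Tnfrsf19 (LOC134481977) and Traf3ip3 (C13h1orf74). Strand use in counting is not given in the sources used here, so reads of these 16 members could include those of the neighbour.

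Upstream sequence from RefSeq, build GRCr8, was matched by symbol for 40 of the 49 members, among them 8 of the 10 risen and both fallen ones. The 250 bases before the annotated start are shown for 4 members that rose with separate groups, for Traf3, which fell, and for Tnfaip3 as a known NF-kB target that was not called. Capitals mark matches, on either strand, to 4 motifs: the NF-kB consensus, the interferon response core (GAAA, any 2 bases, GAAA), the PU.1 box GAGGAA of myeloid genes and the AP-1 motif TGANTCA.
Tnfrsf1a promoter, chr4:159836869-159837118, + strand: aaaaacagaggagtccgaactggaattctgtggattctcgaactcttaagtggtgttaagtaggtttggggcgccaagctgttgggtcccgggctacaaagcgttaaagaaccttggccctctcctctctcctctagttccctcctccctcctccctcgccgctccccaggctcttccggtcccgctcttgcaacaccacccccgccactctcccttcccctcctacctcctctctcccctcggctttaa
Tnfrsf1b promoter, chr5:162387412-162387661, - strand: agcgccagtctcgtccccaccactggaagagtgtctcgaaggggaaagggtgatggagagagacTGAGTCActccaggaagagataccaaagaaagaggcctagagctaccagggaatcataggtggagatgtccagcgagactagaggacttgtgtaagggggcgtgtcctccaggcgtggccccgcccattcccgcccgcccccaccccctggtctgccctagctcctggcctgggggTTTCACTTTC
Tnfsf13b promoter, chr16:86194500-86194749, - strand: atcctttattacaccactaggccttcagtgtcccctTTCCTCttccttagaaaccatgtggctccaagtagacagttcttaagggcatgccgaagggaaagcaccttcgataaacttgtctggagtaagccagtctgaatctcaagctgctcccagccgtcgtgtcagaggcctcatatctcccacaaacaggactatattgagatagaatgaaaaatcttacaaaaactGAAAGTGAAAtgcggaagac
Tnfaip8l2 promoter, chr2:185415737-185415986, - strand: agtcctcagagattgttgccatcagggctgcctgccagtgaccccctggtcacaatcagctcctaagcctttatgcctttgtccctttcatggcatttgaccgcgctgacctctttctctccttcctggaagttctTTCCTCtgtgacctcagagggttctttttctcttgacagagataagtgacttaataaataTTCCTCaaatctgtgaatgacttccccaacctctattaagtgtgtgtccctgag
Traf3 promoter, chr6:136026799-136027048, + strand: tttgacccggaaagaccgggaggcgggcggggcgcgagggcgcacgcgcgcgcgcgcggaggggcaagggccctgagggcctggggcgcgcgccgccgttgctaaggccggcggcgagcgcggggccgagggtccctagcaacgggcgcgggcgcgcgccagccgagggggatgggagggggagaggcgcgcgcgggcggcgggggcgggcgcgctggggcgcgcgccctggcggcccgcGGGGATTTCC
Tnfaip3 promoter, chr1:15543980-15544229, - strand: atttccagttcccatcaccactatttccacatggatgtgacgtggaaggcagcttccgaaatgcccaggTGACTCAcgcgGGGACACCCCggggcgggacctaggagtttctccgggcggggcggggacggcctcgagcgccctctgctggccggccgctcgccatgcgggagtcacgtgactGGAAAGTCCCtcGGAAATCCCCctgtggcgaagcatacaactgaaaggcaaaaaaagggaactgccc
The marked matches in these 6 windows do not overlap each other. Tnfaip3 held 3 NF-kB matches, starting 170, 67 and 55 bases upstream, and 1 AP-1 match 181 bases upstream. In Traf3 the capitals are an NF-kB match ending at the last base before the start. Tnfrsf1b held an interferon response core from 10 bases upstream to the base before the start and an AP-1 match starting 186 bases upstream. Tnfsf13b held an interferon response core starting 20 bases upstream and a PU.1 box starting 214 bases upstream, and Tnfaip8l2 held PU.1 boxes starting 114 and 54 bases upstream. The Tnfrsf1a window matched none of them. Of 33469 windows of the same length, 6.33% held the NF-kB consensus, 3.41% the interferon response core, 23.3% the PU.1 box and 6.34% the AP-1 motif. Among the 8 risen members with a window, 0 held the NF-kB consensus, 2 the interferon response core, 3 the PU.1 box and 2 the AP-1 motif. A match is a description of letters, not of binding.

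Most myeloid markers rose in ICH. Only 3 genes of the T and B cell list had enough counts to be tested, and none was called. Of 12 microglia and macrophage markers, 10 rose in ICH against Sham (median log2 fold change 2.41), where 11.4% of all genes rose. The microglial genes P2ry12 (1.68 ± 0.58, adjusted p = 0.0732) and Tmem119 (0.27 ± 0.23, adjusted p = 0.488) were not called. The summed level of the list ran from 690 to 797 CPM in Sham, 2953 to 3241 CPM in ICH and 1494 to 2541 CPM in EDB. All 6 tested of 9 monocyte and neutrophil markers rose, with sums of 42.2 to 61.9 CPM in Sham, 424 to 697 CPM in ICH and 135 to 228 CPM in EDB, while the neutrophil genes Mpo and Elane were too low to test. Of 8 astrocyte markers 2 rose and 1 fell, of 9 oligodendrocyte markers 3 rose, of 9 striatal neuron markers 3 fell and of 8 endothelial and pericyte markers 1 fell. Over all genes tested, 7.3% fell. The 3 tested T and B cell markers had adjusted p between 0.307 and 0.727, and the 10 measured genes of that list summed to 40 to 99 counts per library. Of the T cell genes, Cd3e had 4 to 33 counts per library, Lck 20 to 58 and Cd3d at most 2, and the B cell gene Ms4a1 had at most 3. The part of cell numbers in the members' changes was not tested.

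**Figure D3:**
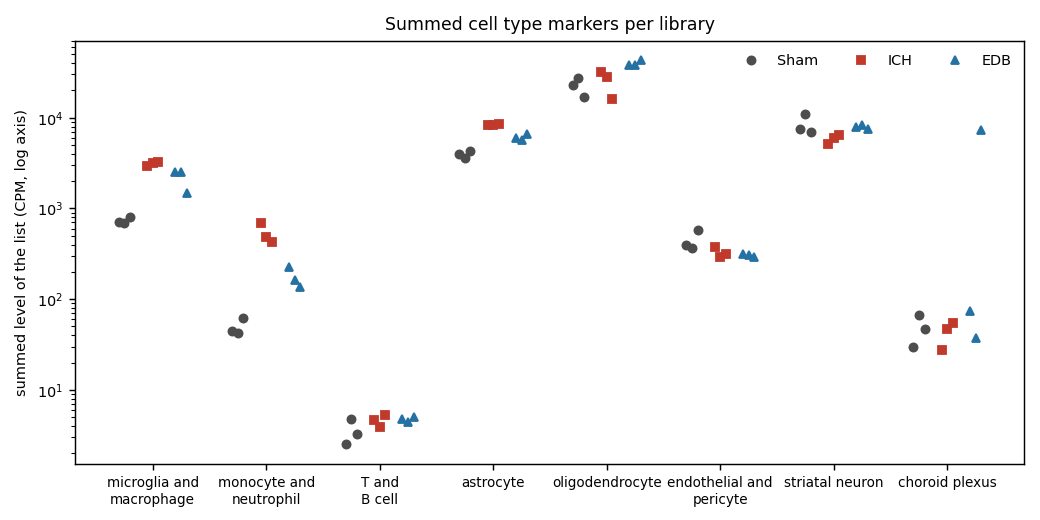
Summed level in CPM (vertical log axis) of each cell type marker list, with 1 point per Sham, ICH or EDB library. The microglia and macrophage sums are lowest in Sham (690 to 797) and highest in ICH (2953 to 3241); 1 EDB library has a choroid plexus sum of 7283.

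The 12 members below the filter were read by summed counts with exact 95% counting intervals, which cover counting error only. They include the B cell receptors Tnfrsf13c and Tnfrsf17, the T cell costimulators Tnfrsf8, Tnfrsf14 and Tnfrsf18 and 6 ligands. Tnfsf9, the ligand of the T cell receptor Tnfrsf9, had 1, 2 and 4 counts in Sham 1, 2 and 3, 23, 15 and 5 in ICH 1, 2 and 3, and 10, 7 and 7 in EDB 1, 2 and 3. In CPM every EDB library was above every Sham library, while ICH 3 (0.270) lay below Sham 3 (0.283). The ratio of ICH over Sham was 5.33 (2.38 to 14.0). Without ICH 3, the ICH library at the level of Sham, the gene passed the filter through ICH 1 and ICH 2 and was called, a call that leaving out that library brings about. Tnfsf18, the ligand of the regulatory T cell receptor Tnfrsf18, had 1 count in Sham, 18 in ICH and 1 in EDB. Of those 18, ICH 1 held 14.

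ICH 1 also held 8 of the 11 ICH counts of Tnfrsf18 and 14 of the 20 of Tnfrsf14, so that these sums rest on 1 library. Tnfrsf14, the receptor of Tnfsf14, had a ratio of 3.47 (1.26 to 11.8) over 5 counts in Sham. Tnfrsf8, a receptor of activated lymphocytes, had 0 counts in Sham and 12 in ICH, at least 3.47-fold higher when Sham is set to a floor of 3 counts over the group, with an exact 95% lower limit of 2.41, and 7 of the 12 were in ICH 1. Tnfrsf17, the receptor for Tnfsf13 and Tnfsf13b on plasma cells, had 3 counts in Sham and none elsewhere, where the floor of 3 counts over the ICH group stands at 0.0582 CPM. Of the other receptors for those 2 ligands, Tnfrsf13c had 9, 26 and 23 counts in Sham, ICH and EDB (ICH over Sham 2.51, 1.14 to 6.08), and Tnfrsf13b was tested and not called (0.93 ± 0.72, adjusted p = 0.433). Tnfrsf22, Tnfsf8, Tnfsf11, Tnfsf14 and Tnfsf15 had at most 16 counts in any group.

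The comparison of EDB with ICH asks what differed between the drug group and the hemorrhage group. One member, Tnfrsf1a, fell and 0 rose by edgeR, of 37 tested. Over all genes, 0.631% fell and 0.056% rose, or 98 genes in all, a number that was 321 without Sham 2 and between 8 and 44 without any other library. At an unadjusted p under 0.05, 5 members were lower and 1 was higher in EDB; these 6 of 37 are no more than the 16.2% of all genes under that threshold. DESeq2 called 3 falls and 0 rises among the members, and 696 of all genes; limma-voom called 2 falls and 0 rises, and 182 of all genes. The median log2 fold change was -0.30 over the 37 members and -0.03 over all genes tested.

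For Tnfrsf1a the fall was -0.82 ± 0.14 (adjusted p = 0.0411), with the 3 EDB libraries at 25.6 to 35.0 CPM all below the 3 ICH libraries at 53.6 to 57.3 CPM. The call stood near the threshold: it was lost without any 1 library other than Sham 2 (adjusted p between 0.0546 and 0.151, log2 fold changes from -0.90 to -0.69) and with only the 6 libraries compared (adjusted p = 0.05004). Tnfrsf1b had a nearly equal change of -0.83 ± 0.17 without a call (adjusted p = 0.0573), and was called with DESeq2 (adjusted p = 0.00151), limma-voom (adjusted p = 0.0328) and library size scaling (adjusted p = 0.0334), and without Sham 2 (adjusted p = 0.0353). Tnfrsf19, with EDB at 31.0 to 34.5 CPM, had -0.66 ± 0.14 (adjusted p = 0.0645) and was called with DESeq2 (adjusted p = 0.00341) and without Sham 2 (adjusted p = 0.0387). All 3 receptors were lower in every EDB library than in any ICH library. Groups without overlap were seen for 11 of the 37 members and for 25.2% of all genes, so such separation was common here.

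The other members called in ICH against Sham were not called in EDB against ICH. Tnfaip8l2 had -0.60 ± 0.19 (adjusted p = 0.158), Tnfsf13b -0.85 ± 0.45 (adjusted p = 0.385) and Tnfsf4 -0.37 ± 0.41 (adjusted p = 0.693). Tnfsf13, Traf3ip3 and Tnfaip6 had -0.14 ± 0.15, -0.37 ± 0.31 and -0.31 ± 0.34. Changes above 0 were those of Tnfrsf11a, 0.40 ± 0.15 (adjusted p = 0.222), and Tnfrsf4, 0.71 ± 0.70 (adjusted p = 0.653), which was 1.48 without ICH 2 and 0.25 without ICH 3. Traf3 had -0.05 ± 0.15 (adjusted p = 0.893), with a sign that turned without ICH 3 or EDB 1 (0.0169 and 0.0140). Of the microglia and macrophage markers, 0 of 12 were called in this comparison by edgeR, with 8 lower at an unadjusted p under 0.05, and their sum was lowest in EDB 3 (1494 CPM against 2510 and 2541 CPM in the other 2 EDB libraries). Of the 6 tested monocyte and neutrophil markers, Lyz2 fell (-1.84 ± 0.27, adjusted p = 0.0244) and the other 5 had changes below 0 without a call; the sums of that list did not overlap (135 to 228 CPM in EDB, 424 to 697 CPM in ICH). Of 8 astrocyte markers, 5 were lower at an unadjusted p under 0.05 and 0 were called by edgeR. Of all 14274 genes, 1423 were lower at that threshold and 0.631% were called as falls. Among the EDB libraries, Tnfrsf1a was lowest in EDB 2, as was the astrocyte sum (6047, 5707 and 6638 CPM in EDB 1, 2 and 3). Tnfrsf19 was lowest in EDB 1 instead (31.0, 34.5 and 32.1 CPM in EDB 1, 2 and 3). Tnfrsf1b, Tnfaip8l2 and the sums of both the microglia and macrophage list and the monocyte and neutrophil list were lowest in EDB 3. These orders rest on single libraries, and the part of these cell types in the receptors' values was not tested.

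**Figure D4:**
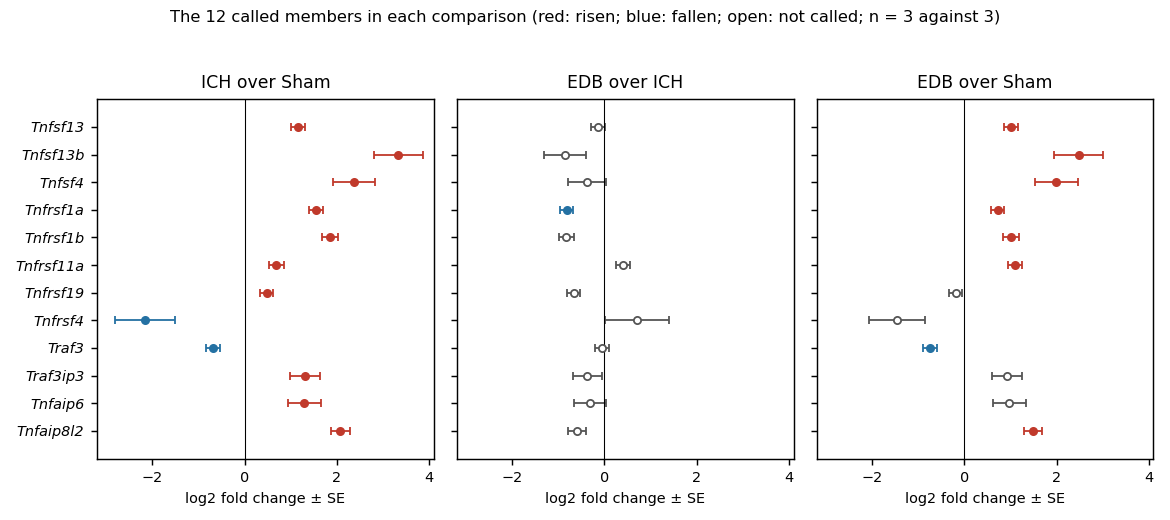
Log2 fold changes ± SE (horizontal axes, n = 3 against 3) of the 12 called members in ICH over Sham, EDB over ICH and EDB over Sham; filled red points rose, filled blue points fell, open points were not called. In EDB over ICH only Tnfrsf1a is filled, at -0.82, and the 3 panels share libraries in pairs.

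Set against Sham, EDB showed part of the pattern that ICH showed, and these values share their libraries with the comparisons above. There, 7 members rose and 1 fell, where 4.95% of all genes rose and 2.71% fell, 7.66% together. The number of risen members was 4 without EDB 1, 8 without Sham 2 and 7 without EDB 3. Tnfaip8l2 rose by 1.48 ± 0.20 (adjusted p = 0.00145), Tnfrsf11a by 1.09 ± 0.15 (adjusted p = 0.00204) and Tnfsf13 by 1.004 ± 0.15 (adjusted p = 0.00267). Tnfrsf1b rose by 1.02 ± 0.17 (adjusted p = 0.00514). These 4 rises were called without any 1 library.

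Tnfrsf1a rose by 0.73 ± 0.14 (adjusted p = 0.0107) and lost its call without Sham 1 or EDB 1 (adjusted p between 0.0541 and 0.0573). Tnfsf13b rose by 2.48 ± 0.54 (adjusted p = 0.0187; 3.27 without Sham 1), with the call lost without Sham 3, EDB 1 or EDB 2 (adjusted p between 0.0516 and 0.0715). Tnfsf4 rose by 1.996 ± 0.47 (adjusted p = 0.0262), with the call lost without Sham 1, EDB 1 or EDB 2 (adjusted p between 0.0710 and 0.0894). Both Tnfsf13b and Tnfsf4 also lost the call with only the 6 libraries compared (adjusted p of 0.0532 and 0.0582). For these 3 genes every EDB library was above every Sham library, and 26.1% of all genes had no overlap in this comparison. Traf3 fell by 0.75 ± 0.15 on the log2 scale (adjusted p = 0.0135), which was not called without Sham 3 or EDB 1 (adjusted p between 0.0525 and 0.0691). Tnfrsf19 (-0.19 ± 0.14), Tnfaip6 (0.98 ± 0.36), Traf3ip3 (0.94 ± 0.32) and Tnfrsf4 (-1.45 ± 0.61) were not called.

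Genes that act with the family were read from a list of 51, of which 45 were tested. In ICH against Sham 13 rose and 0 fell, against 11.4% and 7.3% of all genes. By edgeR at an unadjusted p under 0.05 the list had 19 higher and 0 lower. Of all 14274 genes, 31.5% passed in either direction, 2528 of them higher and 1973 lower. The median log2 fold change was 0.37 over the list. Receptors without the family's name were among those that rose. Cd40, which activates microglia and B cells, stood at 0.940 ± 0.316 CPM across Sham and 6.71 ± 0.485 CPM across ICH (SD, n = 3; log2 fold change 2.83 ± 0.33, adjusted p = 0.000206). The death receptor Fas went from 0.802 ± 0.282 to 4.13 ± 0.617 CPM (2.35 ± 0.36, adjusted p = 0.00116), and the lymphotoxin receptor Ltbr from 27.6 ± 2.59 to 59.6 ± 3.69 CPM (1.11 ± 0.13, adjusted p = 0.000160).

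Among genes of the list that act in cell death, Ripk3, Mlkl, Casp8, Fadd and the receptor gene Fas rose. Ripk1 (0.60 ± 0.24, adjusted p = 0.108), Tradd (0.61 ± 0.37, adjusted p = 0.292), Cflar (0.03 ± 0.22, adjusted p = 0.948) and Map3k5 (0.29 ± 0.22, adjusted p = 0.410) were not called. The necroptosis kinase Ripk3 went from 1.32 ± 0.453 to 12.6 ± 5.09 CPM (3.25 ± 0.45, adjusted p = 0.000597). Mlkl, which Ripk3 activates to rupture the membrane, rose by 2.21 ± 0.34 (adjusted p = 0.00121), and the initiator caspase gene Casp8 by 2.19 ± 0.39 (adjusted p = 0.00294). The non-canonical NF-kB subunits Nfkb2 (0.94 ± 0.18, adjusted p = 0.00427) and Relb (1.24 ± 0.26, adjusted p = 0.00726) also rose. Map3k14, the kinase of that route, was not called (0.36 ± 0.14, adjusted p = 0.109). The 5 risen genes not yet given with values were Adam17, the protease that sheds TNF, and Fadd, Nfkb1, Nfkbie and Tab2, at log2 fold changes from 0.61 to 0.92. Nfkbia, which holds NF-kB in the cytoplasm and is one of its targets, was not called (0.06 ± 0.16, adjusted p = 0.858).

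In EDB against ICH 0 of these 45 were called by edgeR, where 0.687% of all genes were. At an unadjusted p under 0.05, 16 were lower and 0 higher. Of all 14274 genes, 16.2% passed in either direction, 1423 of them lower and 895 higher. DESeq2 called 4 and limma-voom 0. Without Sham 2 edgeR called 2. In EDB against Sham 4 of 45 (8.89%) were called, close to the 7.66% of all genes called in either direction. All 4 were rises, where 4.95% of all genes rose. They were Ltbr (0.76 ± 0.13, adjusted p = 0.00462), Cd40 (1.63 ± 0.33, adjusted p = 0.0139), Ripk3 (2.13 ± 0.45, adjusted p = 0.0156) and Casp8 (1.52 ± 0.39, adjusted p = 0.0389). With only the 6 libraries compared, Cd40 (adjusted p = 0.0576) and Casp8 (adjusted p = 0.0694) were not called. Cd40 and Ripk3 lost their calls without Sham 1, Sham 3 or EDB 1 (adjusted p between 0.0515 and 0.0726), and Casp8 without Sham 1, Sham 2, ICH 2, EDB 1 or EDB 2 (adjusted p between 0.0600 and 0.131). The list had 1 call without Sham 1 or EDB 1, 2 without Sham 3 and 2 by limma-voom. At an unadjusted p under 0.05 edgeR had 10 of the list higher and 0 lower. Of all 14274 genes, 22.9% passed in either direction, 1830 of them higher and 1436 lower.

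**Figure D5:**
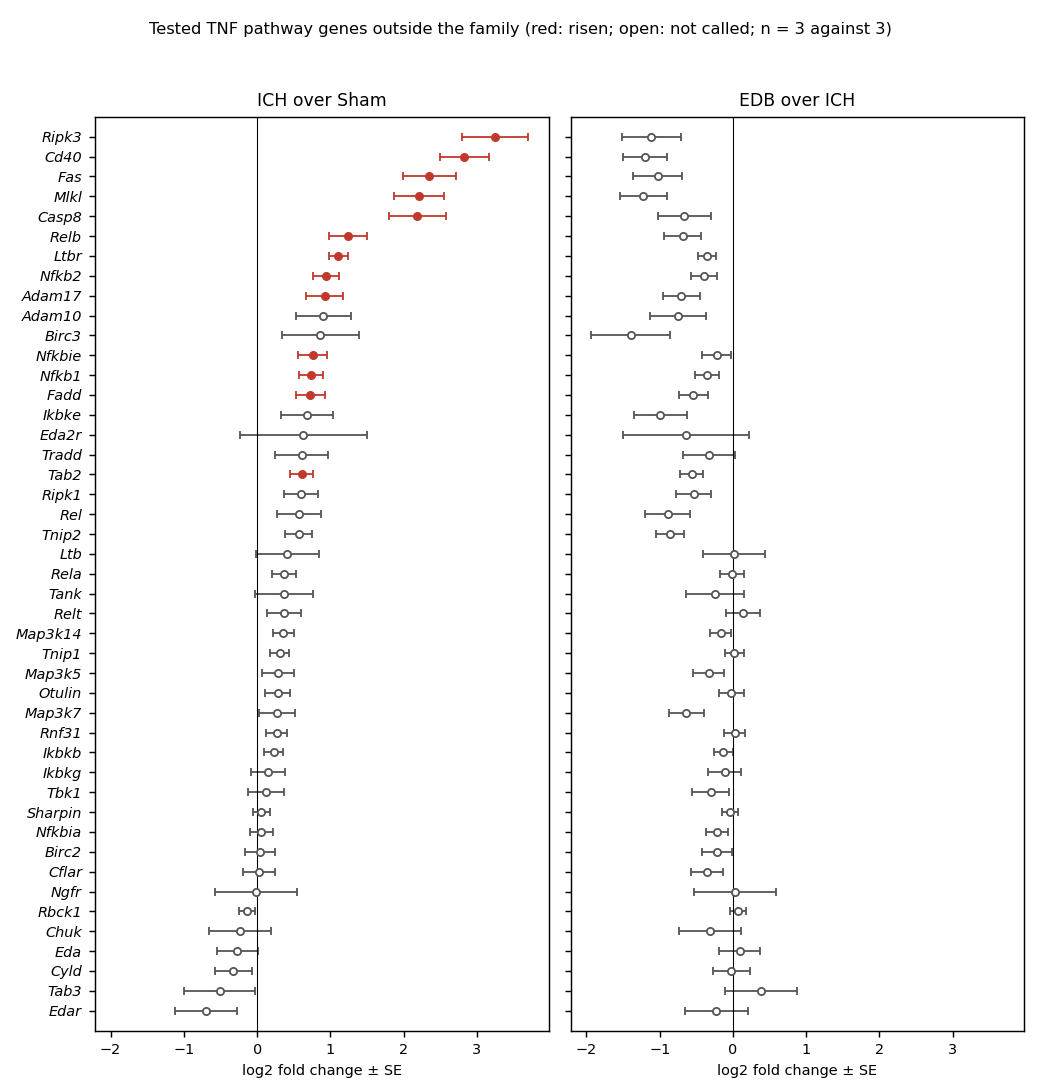
Log2 fold changes ± SE (horizontal axes, n = 3 against 3) of the 45 tested pathway genes outside the family, ordered by the change in ICH over Sham (left) and shown in EDB over ICH (right). On the left 13 filled red points rose, led by Ripk3 at 3.25, and the right panel has no filled point.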

How the data were processed

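Striatal RNA was sequenced in 3 libraries each of Sham, ICH and EDB. The authors deposited raw read counts per gene, 1 library per file. Per the submitters' processing notes, cutadapt, HISAT2, HTSeq and limma were used with build Rnor_6.0; the sources used here do not give their versions, the annotation, strand use or filters. The members and lists were chosen with earlier results of these data known.

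Counts were filtered with filterByExpr by group (minimum count 10) and scaled by TMM in R 4.3.3 with edgeR 4.0.16, leaving 14274 genes. One model with a mean per group was fitted to all 9 libraries (glmQLFit, robust), with quasi-likelihood F tests, tested on simulated data beforehand. SE values belong to the log2 fold changes and were derived from the test, as the absolute log2 fold change divided by the square root of F. Per-library values are given for members called in any comparison and for a further set fixed by name. Within that set, Tnfrsf12a, Tnfrsf21, Tnfrsf25, Traf1, Traf2, Traf4, Traf6 and Traf7 are given for Sham and ICH libraries only. Of pathway genes, values are given for the 8 called with the smallest p and for others named in the text, without per-library values. No 2 libraries of a group agreed within sampling noise. Alternatives were RLE scaling, library size only, no filter, DESeq2 1.42.0, a floor of 1 CPM reached by 3 libraries, limma-voom (limma 3.58.1), only the 6 libraries compared, a replicate block and leaving out each library. With 3 against 3, no exact permutation test of a single gene could go below 0.10. Promoters came from a RefSeq table of build GRCr8.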

Additional observations from a re-analysis of the deposited data

How the results depend on the processing

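Over 62 gene changes given in the text, the 8 alternative settings kept direction and call in 468 cases, lost the call in 14, gained it in 7 and turned the sign in 0, and gave no value in 7, where Tnfrsf4 (with the floor of 1 CPM or only the 6 libraries compared) or Tnf (with the floor of 1 CPM) was not tested; leaving out 1 library kept both in 498, lost the call in 50, gained it in 6 and turned the sign in 4. Those 4 were changes that were never called: Tnf in ICH against Sham ranged from -0.0161 to 1.57 on the log2 scale, Tnfrsf11b from -0.79 to 0.0931, and Traf3 in EDB against ICH from -0.11 to 0.0169. The fallen members in ICH against Sham numbered 2, but 1 without the count filter, with a floor of 1 CPM in 3 libraries or with only the 6 libraries compared, and 1 to 2 with a library left out. In EDB against ICH, 1 member fell, against 2 with library size only, 3 with DESeq2, 2 with limma-voom and 0 with only the 6 libraries compared, and 0 to 3 with a library left out. Risen members in EDB against Sham ran from 4 to 8 and fallen ones from 0 to 1 with a library left out. Over all genes the calls in EDB against ICH, 98, were 696 with DESeq2 and 182 with limma-voom, and 8 to 321 with a library left out. In EDB against Sham the 1094 calls were 1796 with DESeq2 and 508 to 1661 with a library left out (508 without EDB 1, 577 without Sham 3, 590 without Sham 1, 1661 without Sham 2), and in ICH against Sham the 2670 calls were 1769 (without ICH 1) to 2624. Pathway genes called in EDB against ICH numbered 4 with DESeq2 and 0 to 2 with a library left out; in EDB against Sham they numbered 2 with limma-voom, 2 with only the 6 libraries compared and 1 to 4 with a library left out. The cause was not tested. Scaling by library size only moved the median of all genes in ICH against Sham from 0.01 to 0.10 (log2) and that of the members from 0.49 to 0.60, with 2008 genes risen and 691 fallen in place of 1628 and 1042.

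Replicate numbers did not pair the samples: deviations of same-numbered libraries correlated from -0.31 to 0.25 across the 9 pairs, and 2, 2 and 0 of 6 libraries correlated best with their own number in ICH against Sham, EDB against ICH and EDB against Sham. With the replicate number as a block, members fallen in EDB against ICH numbered 0 (Tnfrsf1a at adjusted p = 0.0873) and all genes called there 58. Under the block 8 members rose and 2 fell in ICH against Sham, with Tnfaip6 (adjusted p = 0.0563) and Tnfrsf19 (adjusted p = 0.0889) no longer called, and 6 rose and 1 fell in EDB against Sham, with Tnfsf4 (adjusted p = 0.0516) and the pathway gene Casp8 (adjusted p = 0.0887) no longer called. At this depth, changes of the 12 members below the filter are limited by counting error. For some, such as Tnfsf18 with 14, 2 and 2 counts in ICH 1, 2 and 3, they are also limited by the spread between libraries.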
